A study of Homo sapiens with 12 samples.

Results

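The 52 genes described here encode plasma proteins that hepatocytes secrete: albumin and its relatives, fibrinogen, apolipoproteins, serpins, carrier proteins, cystatin-type proteins, clotting and complement factors, and the inter-alpha-trypsin inhibitor family. They form a named list taken from 20037 protein-coding genes on the chromosomes in RefSeq (GRCh38.p14), and the rule that sets their windows uses no measured value. Each gene was examined as a window holding its body and 10 kb on either side. The 52 windows merge into 41 separate stretches of 2.06 Mb, because 18 of the genes lie in 7 clusters whose windows overlap (such as ALB with AFP, or FGA with FGB and FGG), so clustered genes share part of their data.

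The study mapped chromatin in HepG2/C3A cells, a liver tumour line, by CUT&Tag, in which an antibody guides a transposase to the chromatin it recognises. Cells received 10 mM sodium succinate for 48 h or served as the control, which the design text calls a vehicle. Antibodies against histone H3 trimethylated at lysine 27 (H3K27me3) and against lysine carrying a succinyl group, whatever the protein (pan-succinyllysine, Ksu), each gave 2 libraries per treatment, labelled as biological replicates of this single line. These are called control 1, control 2, succinate 1 and succinate 2, and the 4 IgG samples were not used here. All control and succinate cells were grown in high-glucose medium with fetal bovine serum.

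H3K27me3 is laid down by the Polycomb repressive complex PRC2 and covers broad domains over genes that a cell type keeps silent. Lysine succinylation arises from succinyl-CoA, occurs on metabolic enzymes and on histones, and is read here wherever the protein that carries it lies on DNA. Plasma protein genes are among the most liver-restricted genes of the hepatocyte. They are driven from compact promoters by HNF1, HNF4, C/EBP and FOXA factors, and the HepG2 line is known for keeping the secretion of albumin, apolipoproteins and clotting factors.

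Read depth is unknown for peak lists, and the libraries differed widely. The Ksu lists held 76702 and 382019 peaks in control and 294568 and 629903 in succinate, and the H3K27me3 lists held 19133 and 5813 in control and 9985 and 5531 after succinate. The floor, meaning the smallest total signal of any listed peak in units of the smallest signal step, ran from 49 to 8977 over the Ksu libraries and from 51892 to 330249 over the H3K27me3 libraries. The lowest Ksu floor and the most Ksu peaks belonged to succinate 2, and the highest Ksu floor to control 1. With 2 libraries per treatment an exact permutation test has 6 arrangements and cannot give a p below 0.333.

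The plasma protein genes were largely free of H3K27me3. Peaks covered on average 1.87% and 0.973% of a member's window in control and 2.53% and 1.75% in succinate. Other genes within 25% of the same length had 12.3% and 8.39% in the control libraries and 12.3% and 10.9% in the succinate libraries. The members thus held 0.152, 0.116, 0.206 and 0.161 times the cover of genes of like length in control 1, control 2, succinate 1 and succinate 2, the lower value in every library.

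An H3K27me3 peak touched the window of 6 members in control 1, 3 in control 2, 6 in succinate 1 and 4 in succinate 2. Among all genes the shares were 33.2%, 18.2%, 27.7% and 21.3% in the same order. Over the 4 libraries together 6 members (11.5%) were touched at least once, beside 35.1% of all genes and 34.5% of genes of like length, and 46 members had no peak in any library. A peak was present in all 4 libraries for 3 members (F12, HPX and APOB), beside 16.8% of all genes. Peaks within gene bodies were rarer still, with 1, 0, 1 and 1 members touched where 23.4%, 13.6%, 19.1% and 15.5% of all gene bodies were.

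**Figure D1:**
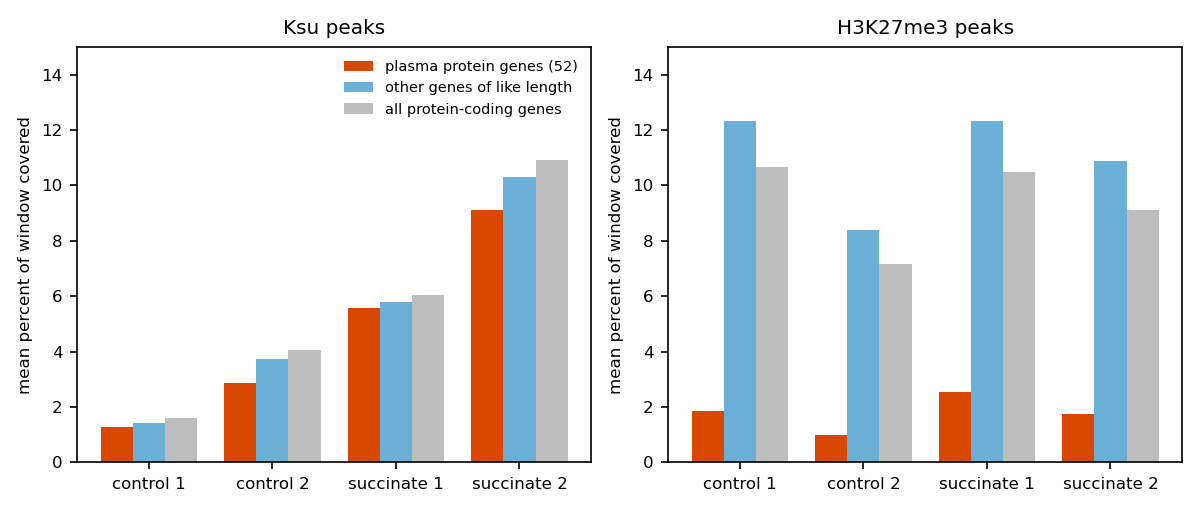
Mean percent of the gene window under peaks (y axis, from 0) in each library (x axis), for the 52 plasma protein genes, other genes of like length and all protein-coding genes, with Ksu on the left and H3K27me3 on the right. The H3K27me3 bars of the plasma protein genes reach 2.53% at most while those of genes of like length start at 8.39%, and the Ksu bars of the gene sets stand close together within each library.

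The bars of mean cover by library show both marks on the same scale. For H3K27me3 the members' bars are low in every library, and for Ksu they follow the other genes from library to library. No error bar is drawn because each bar belongs to a single library.

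The nearest H3K27me3 peak also lay farther from the members than from other genes. Its median distance from a member's body was 98.5 kb and 262 kb in the control libraries and 127 kb and 247 kb in the succinate libraries. The medians over all genes were 40.8, 161, 72.7 and 147 kb. Within 50 kb a peak was found for 17, 7, 13 and 10 members (32.7%, 13.5%, 25% and 19.2%), beside 53.5%, 31.2%, 43.9% and 34.6% of all genes. ALB, which encodes albumin, the main protein of plasma, had its nearest peak in any library 122 kb away, and AFP, which encodes the fetal albumin relative alpha-fetoprotein, 87.7 kb away. A1BG, a plasma glycoprotein gene near the end of chromosome 19, and SERPINA7, the thyroxine-binding globulin gene on the X chromosome, lay more than a megabase from any peak.

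Between treatments the extent of H3K27me3 over the members overlapped, while its ratio to genes of like length did not. Of the merged windows, 1.56% and 0.799% lay under peaks in control and 2.10% and 1.40% in succinate. The succinate mean was 0.57 percentage points higher, little more than the pooled SD of 0.51, and succinate 2 lay below control 1. The ratio to genes of like length, 0.152 and 0.116 for control and 0.206 and 0.161 for succinate, differed by 0.45 on the log2 scale with a pooled SD of 0.26. With 50 kb on either side that difference was 0.051 and the ratios overlapped. With equal numbers of peaks taken from each library the values became 0.605% and 0.799% for control and 1.48% and 1.40% for succinate. The difference was then 0.74 percentage points with no overlap. With the top 50% of peaks by signal the values were 1.17% and 0.595% for control and 1.21% and 0.962% for succinate. There the difference was 0.20 percentage points and the treatments overlapped. Cover was higher in both succinate libraries than in both control libraries for 2 members, F12 and AMBP, beside 7.62% of all genes, and lower in both for 0 members, beside 1.62% of all genes. F12 weighs heavily in the values and ratios of this paragraph, with 32.1% and 36.1% of its window covered in control and 64.8% and 59.4% in succinate. No ratio without F12 was computed, so the lack of overlap is not shown for the other members.

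F12 was the member with the most H3K27me3 and the largest difference between treatments. It encodes coagulation factor XII, the protease that starts the contact pathway of clotting, and lies on the minus strand at chr5:177402141-177409564. Of its window, 32.1% and 36.1% lay under H3K27me3 in control and 64.8% and 59.4% in succinate (34.1 ± 2.86% against 62.1 ± 3.80%, SD, n = 2 each, exact permutation p = 0.333, the smallest that 6 arrangements allow). Both succinate libraries lay above both control libraries. The difference came from the gene body, which had 0% cover in both control libraries, 100% in succinate 1 and 84.8% in succinate 2.

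The F12 difference lay in how far a neighbouring domain extended. In all 4 libraries a peak covered the adjacent genes SLC34A1, a renal phosphate transporter gene, and PFN3, a testis profilin gene, which lie beyond the 3′ end of F12. In control that peak ran over chr5:177382325-177400932 and chr5:177382205-177402042 and stopped 1208 and 98 bp short of F12. In succinate it ran over chr5:177381013-177409907 and chr5:177382466-177408435, so the peak measured 18608 and 19838 bp without succinate and 28895 and 25970 bp with it. The far edge of the domain lay between positions 177381013 and 177382466 in all 4 libraries. In succinate 1 the peak reached past the F12 start site, and in succinate 2 it covered 6295 of the 7424 bp of the gene. The body values were unchanged with the top 50% of peaks by signal, equal numbers, a common floor or peaks of at least 500 bp. These filters keep or drop whole peaks and kept those at F12, so they could not test where the edge of the domain lies. Leaving out either succinate library gave a difference of 84.8 or 100 percentage points.

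The sequence around the F12 start is shown because it is the only promoter, of the 40 members that have an entry in the RefSeq promoter table, that an H3K27me3 peak touched, in succinate 1 alone. It spans chr5:177409515-177409814 on the minus strand, 250 bases before to 50 after the start site (RefSeq, GRCh38.p14), and is printed 5′ to 3′. It has no capitals because none of the 5 motifs searched below was found in it.
F12: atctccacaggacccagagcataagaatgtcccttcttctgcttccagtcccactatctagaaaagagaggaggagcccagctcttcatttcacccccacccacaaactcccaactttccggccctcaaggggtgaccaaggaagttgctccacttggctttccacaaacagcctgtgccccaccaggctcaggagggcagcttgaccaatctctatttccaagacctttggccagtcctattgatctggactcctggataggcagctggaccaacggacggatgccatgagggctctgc

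The other 5 members with H3K27me3 were touched in the flank of the window by peaks over a neighbouring gene or none, except that HPX was also touched in its body in control 1. HPX encodes hemopexin, which binds free haem in plasma. Its window had 19.8% and 7.77% cover in control and 12.3% and 11.6% in succinate, so the groups overlapped. A peak over APBB1, joined in 3 of 4 libraries with SMPD1, ended 6319 to 8513 bp from HPX in every library and was the whole of this cover in 3 of them. Control 1 also had a second peak, of 4430 bp, which covered 2626 bp of the HPX body and made up most of its window's cover. That second peak was lost at equal numbers of peaks, where the window had 4.97% and 7.77% in control below the 12.3% and 11.6% in succinate. APOB encodes apolipoprotein B, the structural protein of very-low-density and low-density lipoproteins. Its window had 3.45% and 6.70% in control and 5.44% and 5.60% in succinate, from a peak 5803 to 7837 bp away that lay over no protein-coding gene. At a common floor the APOB peak was lost in both control libraries. With the top 50% of peaks by signal it was lost in control 2 and succinate 2.

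AMBP encodes the joint precursor of alpha-1-microglobulin and the trypsin inhibitor bikunin. Its window had 14.5% and 0% in control and 14.6% in each succinate library, from a peak inside ZNF618 that ended 4425 to 4467 bp from the gene. AMBP thus counts as higher in both succinate libraries only by the small excess over control 1. Its control 1 peak was lost at equal numbers of peaks, and at a common floor only the peak of succinate 2 was left. With the top 50% of peaks by signal only the control 1 peak was left. RBP4, the plasma carrier of retinol, had 20.2% in control 1, 21.2% in succinate 1 and 0% in the other libraries, from peaks over FFAR4 and, in control 1, PDE6C. KNG1, the gene of high-molecular-weight kininogen, had 7.44% in control 1, 13.4% in succinate 1 and 0% in the other libraries. The peaks of RBP4 and KNG1 were therefore seen only in the libraries with replicate number 1, which had the lower H3K27me3 floors. With equal numbers of peaks, and again at a common floor, both genes had 0% in every library. With the top 50% of peaks RBP4 kept its cover in control 1 alone and KNG1 had 0% in every library.

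**Figure D2:**
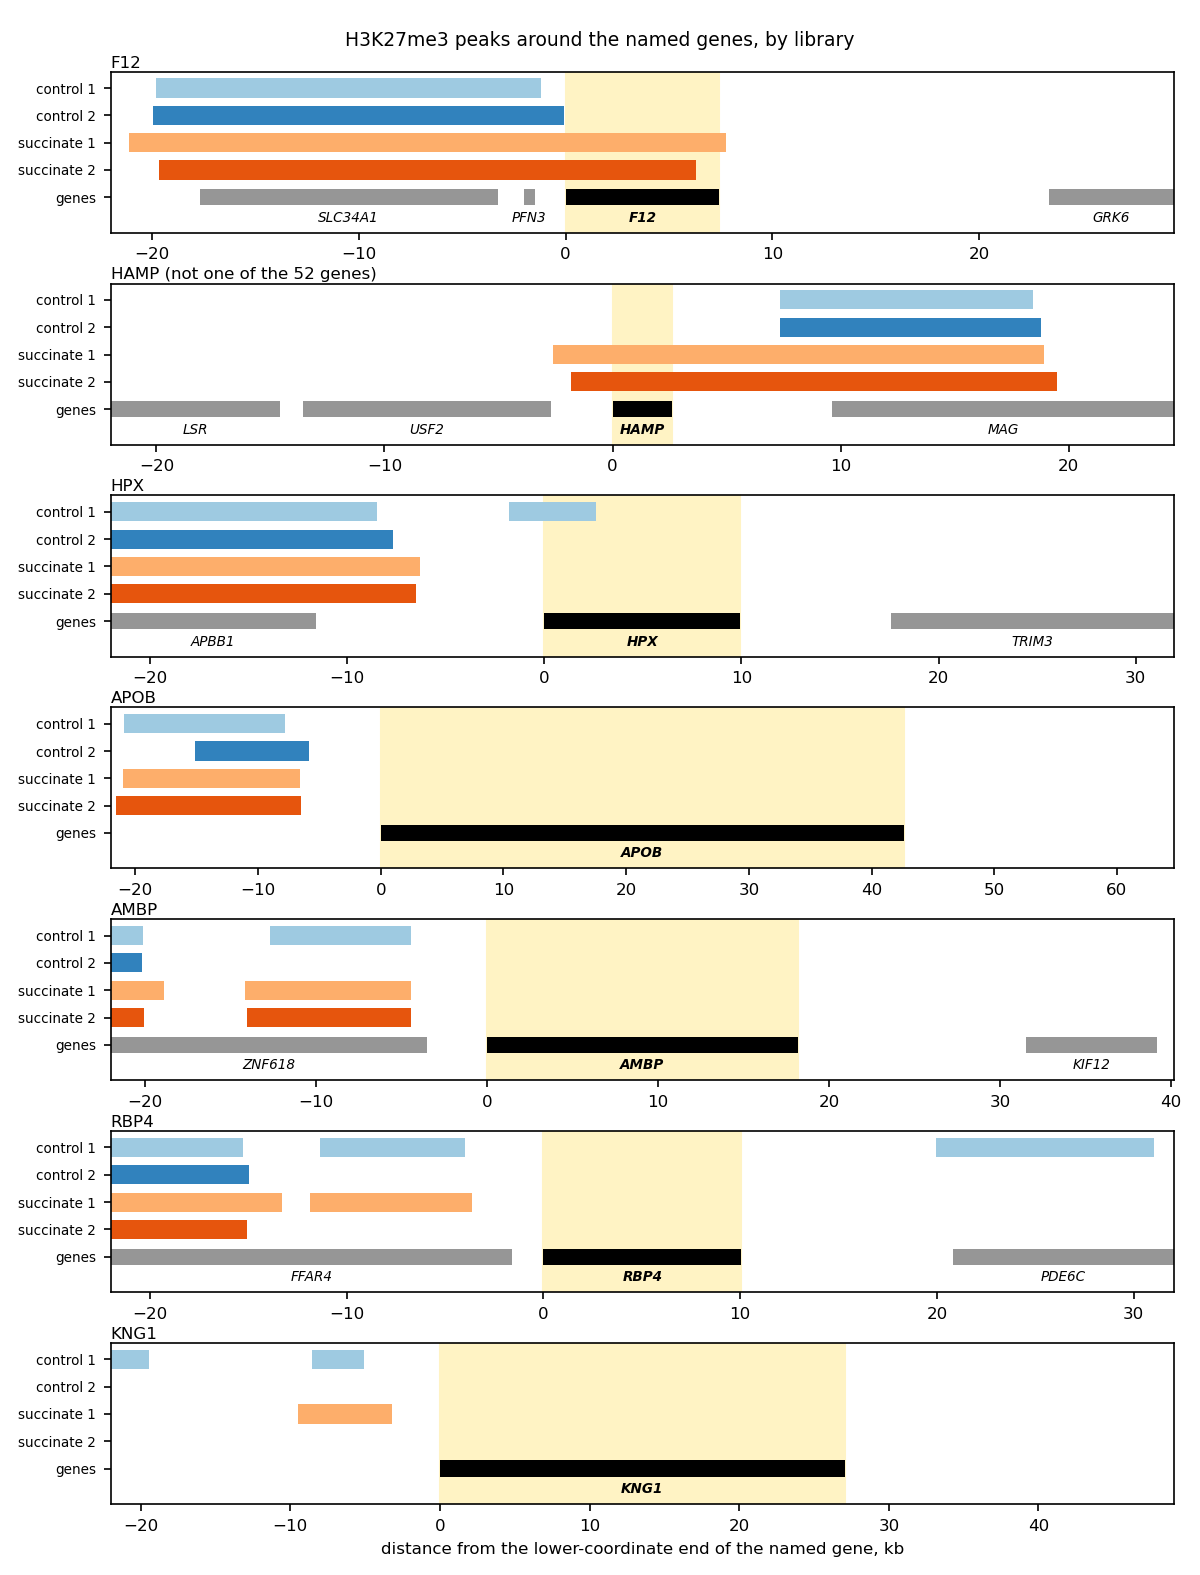
H3K27me3 peaks (bars) in the 4 libraries around the 6 plasma protein genes with a peak in their window and around HAMP, against the distance in kb from the gene's lower-coordinate end (x axis), with the named gene in black and shaded and other protein-coding genes in grey. At F12 the control peaks stop 1208 and 98 bp before the gene and the succinate peaks run over it, while at APOB, AMBP, RBP4 and KNG1 all peaks stay outside the named gene.

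The map of H3K27me3 peaks sets these genes side by side. HAMP, the hepcidin gene, is no member and is drawn because its control and succinate peaks are arranged as at F12.

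Around gene starts the members lacked the H3K27me3 maximum of other genes. For the 40 members with a promoter in the RefSeq table, mean cover within 5 kb of the start was 0% in both control libraries, 1.79% in succinate 1 and 0.968% in succinate 2. For 15803 other genes it was 12.5% and 7.87% without succinate and 11.6% and 9.59% with it. Cover was also uneven on the sides of the start. In the 50 kb upstream it averaged 2.29%, 0%, 0.753% and 0% for members and 10.1%, 6.10%, 9.81% and 8.14% for other genes. In the 50 kb downstream it averaged 5.88%, 3.73%, 6.96% and 5.65% for members, nearer to the 9.66%, 6.31%, 9.31% and 8.03% of other genes. No upstream bin held any H3K27me3 for any of the 40 members in control 2 and succinate 2, the libraries with the fewest H3K27me3 peaks.

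**Figure D3:**
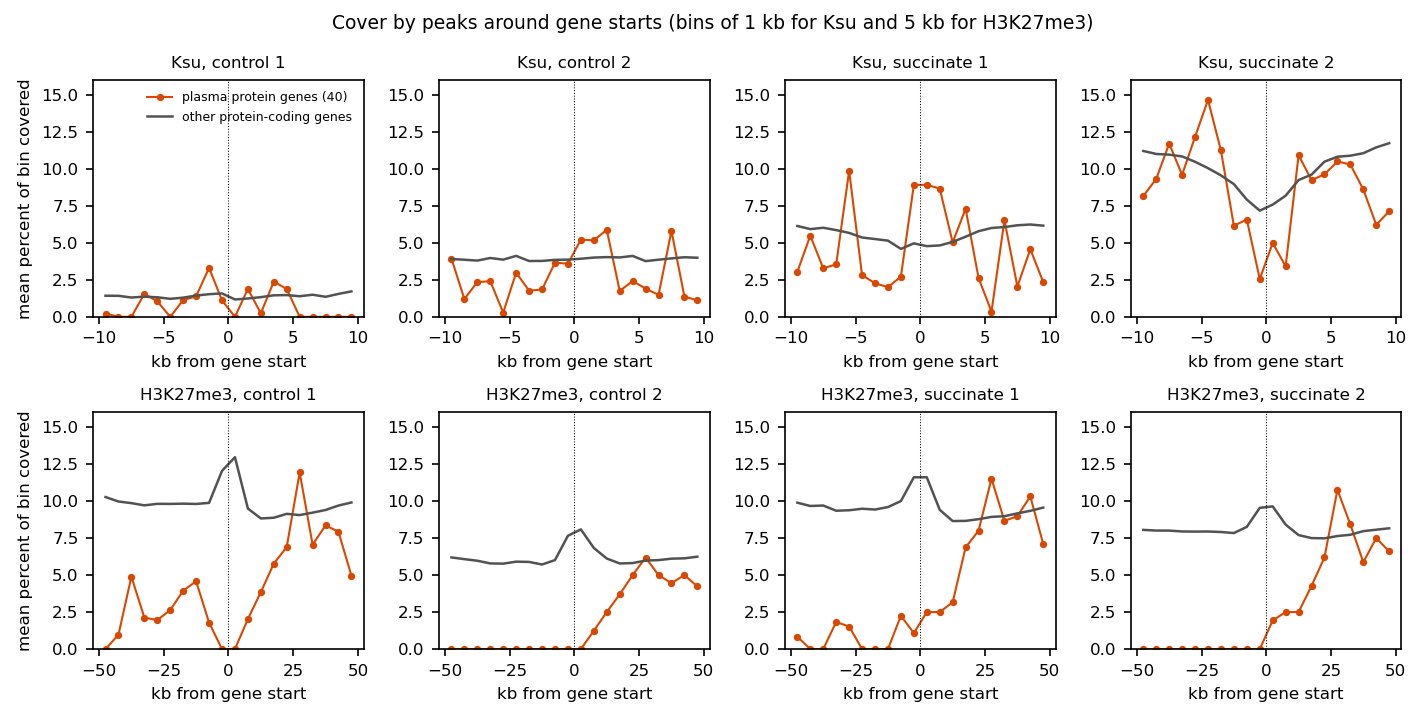
Mean percent of each bin under peaks (y axis) against distance from the gene start in kb (x axis, negative upstream), in 1-kb bins for Ksu (top) and 5-kb bins for H3K27me3 (bottom), for 40 plasma protein genes and 15803 other protein-coding genes in each library. The grey H3K27me3 lines peak at the start, where members are between 0% and 1.79% within 5 kb, and the Ksu line of members rises over the start in succinate 1 and dips there in succinate 2.

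Ksu peaks were more widespread and followed the library more than the gene set. Of the members' merged windows, 1.35% and 3.32% lay under Ksu peaks in control and 5.59% and 9.65% in succinate (2.33 ± 1.39% against 7.62 ± 2.87%, SD, n = 2 each), a log2 difference of 1.80 beside a pooled SD of 0.76. The treatments did not overlap. With equal numbers of peaks from each library the values were 1.35% and 0.623% for control and 1.54% and 1.33% for succinate, and the treatments overlapped. In the full lists succinate 1 had fewer Ksu peaks than control 2 but more cover of the members.

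Genes of like length showed nearly the same Ksu cover. The mean over members was 1.27%, 2.85%, 5.58% and 9.13% per window, and over genes of like length 1.41%, 3.72%, 5.78% and 10.3%. The ratio of the members to those genes was 0.901 and 0.768 for control and 0.965 and 0.887 for succinate, below 1 in every library. Its log2 difference between treatments was 0.15 with a pooled SD of 0.13, and the treatments overlapped. With the 50% of peaks of highest signal this difference was -0.12, and with gene bodies alone it was -0.13.

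A Ksu peak touched 18 member windows in control 1, 51 in control 2, 48 in succinate 1 and 49 in succinate 2, beside 46.5%, 90.3%, 90.2% and 96.6% of all genes. All 4 libraries had a peak at 17 members (32.7%), beside 44.6% of all genes and 32.2% of genes of like length. Cover was higher in both succinate libraries than in both control libraries for 32 members (61.5%), a share near the 60.3% of all genes and 57.4% of genes of like length. It was lower in both for 1 member, APOC3, beside 0.449% of all genes, and the treatments overlapped for the other 19. With equal numbers of peaks 6 members were higher in both succinate libraries, beside 22% of all genes.

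**Figure D4:**
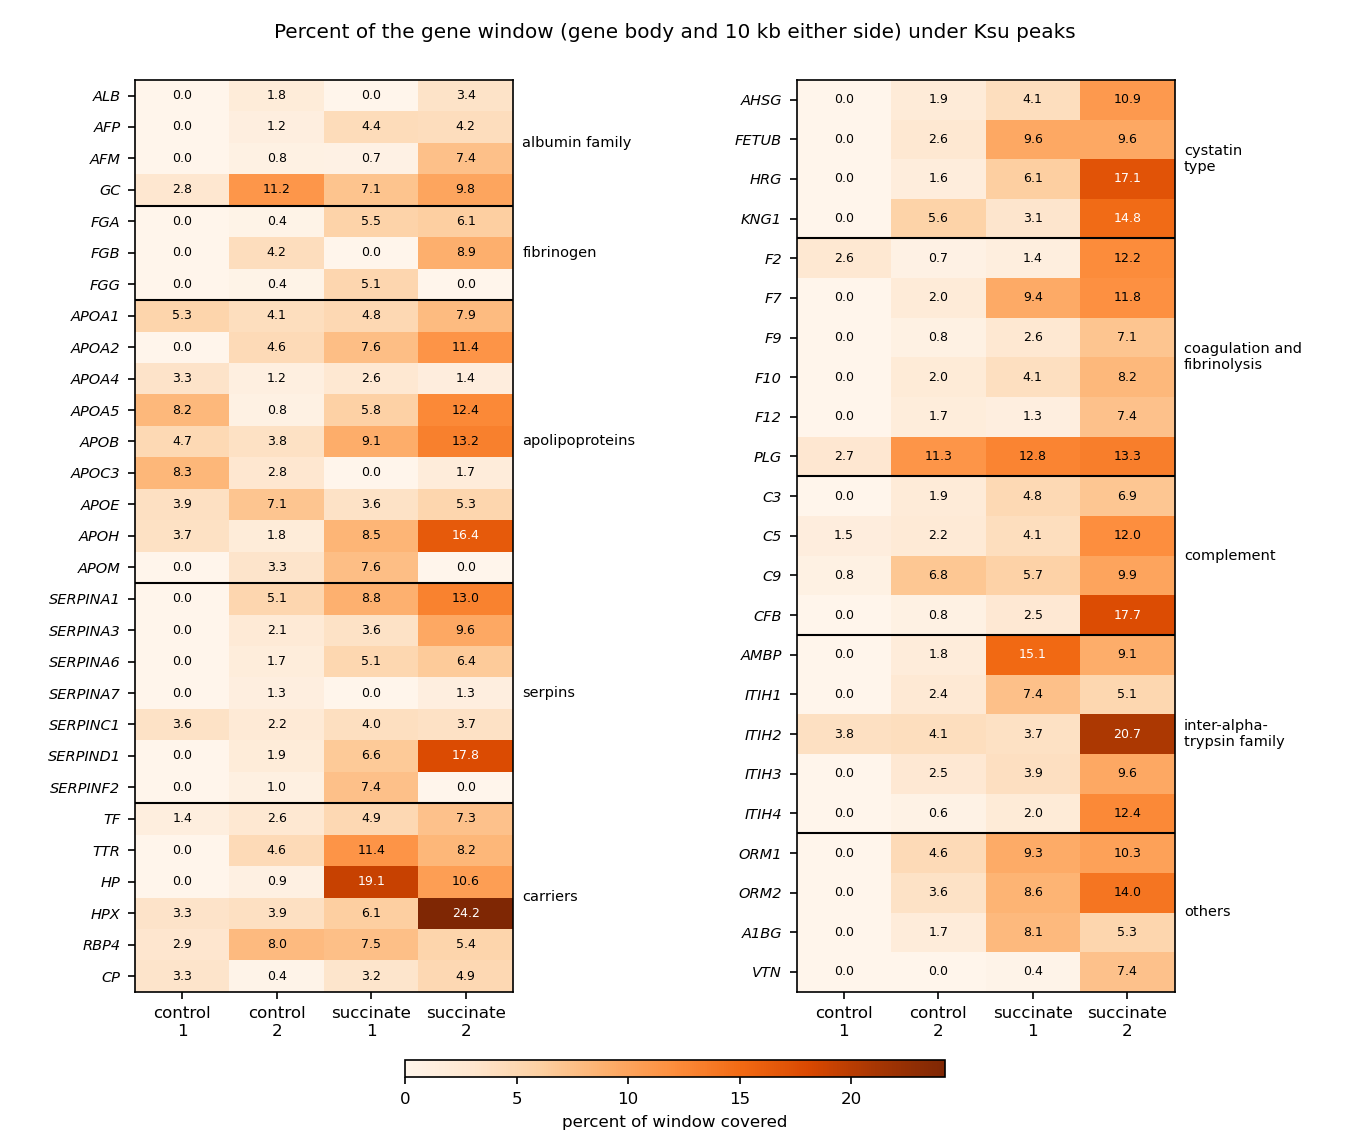
Percent of each gene's window under Ksu peaks (colour and printed value) for the 52 plasma protein genes (rows, by role) in the 4 libraries (columns). Control 1 is at 0 for 34 genes, HPX in succinate 2 has the highest value (24.2%), and APOC3 alone is lower in both succinate libraries than in both control libraries.

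The heat map gives the value of every member. Its columns darken from control 1 to succinate 2 on the whole, in the order of the mean Ksu cover of all genes (1.61%, 4.06%, 6.04% and 10.9%). In control 1 most cover is in the apolipoprotein rows, where 7 of 9 have some, and the carrier rows, where 4 of 6 do, beside 46.5% of all genes.

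Apolipoproteins build and steer lipoprotein particles. The 9 apolipoprotein genes had a mean Ksu cover of 4.17% and 3.27% for control and 5.51% and 7.75% for succinate. In control 1, where 34 of the 52 members had no peak, 7 of the 9 had one, beside 46.5% of all genes and 34.8% of genes of like length. The windows of APOA1, APOA4 and APOC3 overlap, so the same peak can count for more than 1 of the 7. Beside 60.3% of all genes, higher cover in both succinate libraries was seen for 3 of the 9 (APOA2, APOB and APOH) and lower for APOC3. APOB had 4.75% and 3.77% in control and 9.11% and 13.2% in succinate. APOA5, which activates lipoprotein lipase, had 8.22% and 0.820% in control and 5.82% and 12.4% in succinate, so its groups overlapped. APOE, the ligand of the low-density lipoprotein receptor, had 3.87% and 7.06% in control and 3.56% and 5.26% in succinate.

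APOC3, an inhibitor of triglyceride clearance, lies between APOA1 and APOA4 in a cluster on chromosome 11, so the windows of these genes share bases. It had 8.28% and 2.76% in the control libraries and 0% and 1.71% in the succinate libraries, the reverse of the order seen over all genes. APOA1, the main protein of high-density lipoprotein, had 5.33% and 4.08% in control and 4.83% and 7.90% in succinate. With 50 kb on either side in place of 10 kb, the APOC3 difference turned from -4.67 to 6.10 percentage points, and with the gene body alone it was 0, so the lower value rests on peaks in the 10-kb flanks.

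Among carriers of metal, haem, hormone and vitamin were the genes with the highest Ksu cover in each succinate library, HP in succinate 1 and HPX in succinate 2. HPX had 3.32% and 3.86% in control and 6.08% and 24.2% in succinate. HP, the gene of haptoglobin, which binds free haemoglobin, had 0% and 0.851% in control and 19.1% and 10.6% after succinate, and its mean difference of 14.4 percentage points was the largest among the 52 genes. With equal numbers of peaks it was 4.86 percentage points, and with the gene body alone 0.954, so most of it lay in the flanks. HP has a close neighbouring copy, HPR, and ORM1 and ORM2 are near copies of each other, so how reads were shared between such copies could alter their values. TTR, the thyroxine and retinol-binding protein carrier, had 0% and 4.60% in control and 11.4% and 8.25% in succinate. RBP4 had 2.87% and 8.03% in control and 7.52% and 5.36% in succinate. Of the 6 carrier genes 4 were higher in both succinate libraries, near the share of all genes.

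The albumin family and fibrinogen hold the defining hepatocyte products. ALB had 0% and 1.84% in control and 0% and 3.4% after succinate, which made its mean the second lowest of the 52 genes. AFP had 0% and 1.24% in control and 4.38% and 4.17% in succinate. GC, which encodes the vitamin D binding protein, stood apart within the family with 2.79% and 11.2% in control and 7.10% and 9.83% in succinate. In the fibrinogen cluster FGA had 0% and 0.416% in control and 5.53% and 6.08% in succinate, while FGG had 0% and 0.403% in control and 5.15% and 0% in succinate. Of 4 albumin-family genes 1 was higher in both succinate libraries, and of 3 fibrinogen genes 1, beside 60.3% of all genes. These genes lie largely in shared windows, and no test was made on so few.

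Serpins trap proteases or carry hormones, and 5 of the 7 were higher in both succinate libraries, beside 60.3% of all genes. SERPIND1, heparin cofactor II, had 0% and 1.88% in control and 6.57% and 17.8% in succinate. SERPINA1, the gene of alpha-1-antitrypsin, had 0% and 5.14% in control and 8.81% and 13% in succinate. SERPINA7 had the lowest mean of all members, with 0% and 1.26% in control and 0% and 1.32% after succinate. The 4 cystatin-type genes lacked Ksu peaks in control 1 and averaged 2.94% in control 2, 5.74% in succinate 1 and 13.1% in succinate 2. Among them HRG, histidine-rich glycoprotein, had 1.56% in control 2 and 6.14% and 17.1% in succinate.

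Among clotting and complement genes, 4 of 6 and 3 of 4 were higher in both succinate libraries, beside 60.3% of all genes. PLG, which encodes plasminogen, the precursor of the fibrin-cleaving protease, had the highest mean of all 52 genes, with 2.70% and 11.3% in control and 12.8% and 13.3% in succinate. F7, the factor that starts clotting with tissue factor, had 0% and 1.97% in control and 9.40% and 11.8% in succinate. F12, with its difference in H3K27me3, had little Ksu: 0% and 1.70% in control and 1.25% and 7.37% in succinate. Of the complement genes, CFB, factor B of the alternative pathway, was low in 3 libraries and had 17.7% in succinate 2.

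The inter-alpha-trypsin inhibitor family supplies the heavy chains that bind hyaluronan and the bikunin light chain. AMBP had 0% and 1.79% in control and 15.1% and 9.14% in succinate. ITIH2, a heavy chain gene, had 3.84%, 4.10% and 3.70% in the first 3 libraries and 20.7% in succinate 2, so its high mean came from a single library. Higher cover in both succinate libraries was seen for 4 of the 5 family members, the exception being ITIH2, and for all 4 remaining genes (ORM1, ORM2, A1BG and VTN), beside the same 60.3%.

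To remove the difference in overall cover, log2 cover (with 0.5 percentage points added) was centred on each library's mean over all genes and tested with limma across 20037 windows. No gene passed an adjusted p of 0.05 in either direction (0% of genes), and 1376 genes (6.87%), 3 of them members, had an unadjusted p under 0.05. These were APOC3 (log2 difference -4.08, SE 1.11), APOE (-1.98, SE 0.70) and HP (2.43, SE 0.87), each with a limma adjusted p of 0.675. On this scale 29 of 52 members lay above 0, with a median of 0.30 beside 0.03 over all genes. With gene bodies alone these medians were 0.070 and 0.084, with equal numbers of peaks -0.26 and -0.17, and at a common floor both were -0.39. In the other alternatives the members' median was the higher. Without control 2 the same limma fit passed 4072 genes, 19 of them members, and without control 1 it passed 513 genes, 1 of them a member, with the lone control library then assumed to vary like the succinate pair.

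At promoters the libraries differed in another order. A gene counted as touched if a peak met the 300 bases around any of its listed starts. Of the 40 members with a promoter sequence, Ksu peaks touched 0 in control 1, 4 in control 2, 12 in succinate 1 and 4 in succinate 2. Among 15843 genes the shares were 2.54%, 9.57%, 9.69% and 15.9%. Succinate 1, with 30% of members, stood above the share of all genes, while succinate 2, with 10%, lay below it although it had the most Ksu peaks. The 12 promoters of succinate 1 were those of APOA5, APOE, SERPINA1, HPX, AHSG, FETUB, F7, F10, C5, AMBP, ITIH1 and VTN. For SERPINA1, C5 and ITIH1 the start touched lay inside the gene and not at its outer end. At equal numbers of peaks succinate 1 kept 5 of 40 members (12.5%, beside 2.79% of genes) and the other libraries 0.

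The succinate libraries did not share these promoters, apart from C5. The 4 of control 2 were SERPINA3, HPX, C5 and RBP4, and the 4 of succinate 2 were APOH, TF, HRG and C5. In all, 17 of 40 members (42.5%) were touched in at least 1 library, beside 29.6% of genes, but 2 members (5%) in 2 or more libraries, beside 7% of genes. The profile around starts shows the same split. Within 1 kb of the start, members had a mean Ksu cover of 0.555%, 4.40%, 8.91% and 3.77%, and other genes 1.38%, 3.90%, 4.87% and 7.38%. H3K27me3 peaks touched the promoters of 0, 0, 1 and 0 members, beside 16.3%, 8.94%, 13.3% and 10.6% of genes.

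Sequences of 4 promoters are shown because they mark the ends of this range: C5 and HPX were the members touched by Ksu in more than 1 library, and the defining genes ALB and AFP were touched in none. C5 encodes the complement component whose cleavage starts the membrane attack complex. Its peaks touched the promoter window of an internal start site at position 121050275, 24590 bp from the outer end of the gene. They lay at chr9:121050272-121050556 in control 2, chr9:121050421-121050868 in succinate 1 and chr9:121050413-121050828 in succinate 2. Only the control 2 peak covered the start site itself, and both succinate peaks lay upstream of it. The HPX peaks lay at chr11:6440346-6440942 in control 2 and chr11:6440183-6441557 in succinate 1. The control 2 peak met only the edge of the HPX window, inside the gene, and did not reach the start site at position 6440987. The succinate 1 peak covered that start site. The printed windows, from RefSeq (GRCh38.p14) and 5′ to 3′ on the gene's strand, are chr9:121050226-121050525 (minus) for C5, chr11:6440938-6441237 (minus) for HPX, chr4:73404037-73404336 (plus) for ALB and chr4:73435971-73436270 (plus) for AFP. Capitals mark matches to the motifs described after them.
C5: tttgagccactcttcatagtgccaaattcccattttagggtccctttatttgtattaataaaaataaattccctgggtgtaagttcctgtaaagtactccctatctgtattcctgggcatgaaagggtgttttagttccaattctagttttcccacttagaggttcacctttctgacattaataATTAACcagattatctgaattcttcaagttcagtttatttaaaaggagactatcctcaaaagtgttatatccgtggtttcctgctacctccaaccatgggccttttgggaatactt
HPX: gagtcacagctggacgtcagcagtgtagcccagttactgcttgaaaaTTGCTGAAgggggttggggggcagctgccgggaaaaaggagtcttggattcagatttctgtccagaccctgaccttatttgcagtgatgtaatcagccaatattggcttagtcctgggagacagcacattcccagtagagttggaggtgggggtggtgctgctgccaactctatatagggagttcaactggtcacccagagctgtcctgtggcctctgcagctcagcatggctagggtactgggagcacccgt
ALB: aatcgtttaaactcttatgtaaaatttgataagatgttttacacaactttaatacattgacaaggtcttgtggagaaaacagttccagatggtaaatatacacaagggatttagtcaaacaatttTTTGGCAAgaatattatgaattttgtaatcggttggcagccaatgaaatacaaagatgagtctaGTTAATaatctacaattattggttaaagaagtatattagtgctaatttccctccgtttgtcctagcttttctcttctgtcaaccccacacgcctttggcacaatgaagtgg
AFP: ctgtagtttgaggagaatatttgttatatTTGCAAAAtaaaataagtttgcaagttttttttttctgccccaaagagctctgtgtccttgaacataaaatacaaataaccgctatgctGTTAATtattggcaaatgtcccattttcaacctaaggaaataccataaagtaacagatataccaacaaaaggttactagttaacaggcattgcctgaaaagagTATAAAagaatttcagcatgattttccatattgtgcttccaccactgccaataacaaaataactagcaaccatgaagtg

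The motifs searched were short cores of liver factor sites, on both strands except the TATA box, each counted on its own where matches overlap. GTTAAT, a core of HNF1 sites, was found in 13 of 40 members (32.5%), beside 7.13% of 15843 genes and 5.55% of 22199 promoters. TTGCNNAA, of C/EBP sites, was found in 13 members (32.5%), beside 11.2% of genes and 8.69% of promoters. CAAAGNNCA, of HNF4 sites, was found in 9 (22.5%), beside 6.08% of genes and 4.63% of promoters. TGTTTAC, of FOXA sites, was found in 3 (7.5%), beside 3.75% of genes and 2.85% of promoters, and the TATA box TATAAA on the gene's strand in 9 (22.5%), beside 8.65% of genes and 6.48% of promoters. ALB and AFP each carry the HNF1 and C/EBP letters, C5 carries the HNF1 letters read on the other strand and HPX the C/EBP letters. A match describes the letters of the window and is not a measured binding site.

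Peak lists give no expression, so the hepatocyte identity of the line was examined only through H3K27me3. The 7 hepatocyte markers had no H3K27me3 peak in their windows in any library, but 5 of them (ALB, APOA1, TTR, TF and SERPINA1) are members described above and the other 2 (HNF4A and CEBPA) are among the transcription factors below, so this is no separate check. Peaks were present in at least 1 library at 3 of 4 biliary, 3 of 4 stellate and fibroblast, 3 of 4 endothelial, 2 of 5 blood and 4 of 5 neuronal marker windows. Among all genes the share was 35.1%, and these lists are short. Hepatocyte transcription factor genes act upstream of the plasma protein genes. Of their windows 4 of 12 were touched in at least 1 library (CEBPB, FOXA2, NR5A2 and ONECUT1), near the share of all genes. CEBPB and FOXA2 had no peak in the gene body, and the FOXA2 window was touched in control 1 alone.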

How the data were processed

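Each library came as a SEACR peak list on hg38, per the submitters' processing notes, with the stringent mode given in the list names. The deposited values are the authors' total and highest signal per peak, called per library and not on pooled replicates. The aligner, control track, threshold and scaling are not given in the sources used here. Because signal was scaled differently in each library, heights were used only to rank peaks within a library or in steps. Depth is unknown, so no counting intervals are given.

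Peaks on 24 chromosomes were intersected (1 bp or more) with RefSeq GRCh38.p14 gene bodies extended by 10 kb, and covered bases were counted with Python 3.11.15, numpy 2.4.6 and pandas 2.3.3. Genes of like length were within 25% of a member's length (499 to 2731 per member). Treatments were compared by differences of mean log2 cover beside the pooled SD, by overlap of the libraries, by exact two-sided permutation for single genes, and by limma 3.58.1 in R 4.3.3 with Benjamini-Hochberg adjustment over all genes, with scripts tested on simulated data. Spread and p-values reflect 2 biological replicates of a single line. Promoters were 300-base RefSeq windows, matched by symbol for 40 of 52 members.

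The members and lists were chosen with earlier results of these data known. Named genes were all members with H3K27me3, ALB and AFP, the 6 highest and 3 lowest in mean Ksu cover, the 6 largest centred rises and all falls, and 3 with Ksu at the promoter. Others are named within their role group. Alternatives were other peak thresholds, a common floor, wider peaks, other windows and comparison genes, pseudocounts of 0.1 and 2, fits without each replicate, and a block for the replicate number.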

Additional observations from a re-analysis of the deposited data

How the results depend on the processing

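Of 308 alternative values for 30 results, 217 moved by less than the replicate spread or stayed within 1.5 times the count, 83 moved further and 8 reversed. A sign change at a named gene whose treatments overlapped in Ksu was counted among the 83, not the 8. The 217 include values that could not change: differences of means with the replicate block, and F12 gene-body values under filters that kept the same peaks. The Ksu log2 difference of 1.80 was 0.64 with equal numbers of peaks and 1.15 to 2.44 with a replicate left out. At a common floor control 2 had no cover, so no log2 value exists. Against genes of like length, 0.15 became -0.12 with the top 50% of peaks, 0.021 with equal numbers, -0.13 with gene bodies and 0.019 against the 100 kb on each side (0.038 to 0.27 with a replicate left out). The H3K27me3 difference of 0.57 percentage points ranged from 0.19 to 0.95 with a replicate left out. The log2 difference of its ratio to genes of like length, 0.45, was 0.051 with 50 kb either side and 0.26 to 0.65 with a replicate left out (all alternatives for this ratio were chosen after seeing the data), and gene bodies gave no value because control 2 was at 0. Windows with H3K27me3 numbered 2 with gene bodies and 18 with 50 kb either side instead of 6. The 32 members higher in Ksu (beside 60.3% of all genes) became 6 with equal numbers (22%), 1 at a common floor (10.6%) and 21 with gene bodies (46.6%). With a replicate left out they were 35 to 44 (62.3% to 88.3%). After centring (added after seeing the data) 17 were higher and 7 lower, beside 20.8% and 19.9% of all genes. limma calls, 0 of 20037, became 2 with a pseudocount of 0.1, 48 with the top 50% of peaks and 0 to 4072 with a replicate left out. Single-gene Ksu differences in percentage points counted as reversed for APOB (-0.035 with equal numbers, -2.37 at a common floor) and PLG (-0.53 with equal numbers). The same held for APOC3 (6.10 with 50 kb either side) and C5 (-0.038 with equal numbers, -0.00035 at a common floor). Sign changes counted as moved included RBP4 (0.99 to -6.55 with gene bodies) and GC (1.47 to -2.62 with equal numbers). They also occurred at SERPINA7, ALB, F12, APOA5, ITIH2 and FGG. The cause of these changes was not tested.

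With the replicate block the Ksu difference was 1.80, the like-length difference 0.15 and the H3K27me3 differences 0.57 and 0.45. In a balanced design of 2 pairs these differences of means cannot change, so the block is no check of them. By pairs 36 members were higher in both, beside 78.9% of all genes. With the block limma passed 522 genes, 1 of them a member. Same-numbered libraries deviated together with correlations of 0.13 for Ksu and 0.34 for H3K27me3, but with 2 pairs and no stated shared source they share only a number.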

Other observations

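A further 48 plasma protein genes, listed separately from the 52, were also touched by H3K27me3 less often than all genes. An H3K27me3 peak touched 5 of their windows in control 1, 3 in control 2, 4 in succinate 1 and 3 in succinate 2. The shares of all genes were 33.2%, 18.2%, 27.7% and 21.3%. The 5 genes touched in any library were C1R, HABP2, HAMP, MASP1 and SERPING1. Each of these 5 had a peak in its gene body in at least 1 library, while among the 52 only HPX and F12 did. Ksu cover was higher in both succinate libraries for 26 of the 48 and lower in both for 0, beside 60.3% and 0.449% of all genes. A Ksu peak touched 2, 4, 4 and 5 of 35 promoters in control 1, control 2, succinate 1 and succinate 2, beside 2.54%, 9.57%, 9.69% and 15.9% of genes. The high count of the 52 genes in succinate 1 was thus not seen in this list.

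HAMP, the gene of the iron-regulating hormone hepcidin at chr19:35282528-35285143, had the arrangement described for F12. Its body had 0% H3K27me3 cover in both control libraries and 100% in both succinate libraries, and its window had 23.3% and 23.3% in control and 67.3% and 63.8% in succinate. In control a peak over the neighbouring gene MAG, of 11088 and 11434 bp, stopped 4731 and 4721 bp from HAMP. In succinate the peak over MAG was 21507 and 21324 bp wide and covered HAMP.

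A search prompted by F12, and so chosen after its values were seen, counted gene bodies with no H3K27me3 in either control library and over 50% cover in both succinate libraries. There were 12 among 20037 genes, namely CLDN4, DUSP8, ELOVL3, F12, HAMP, HES1, KRTAP10-12, KRTAP5-4, KRTAP5-6, LRCOL1, NHLRC4 and TMEM151A. The opposite arrangement was found for 8 genes (ARSI, KCNMB1, KRT81, LOC124901104, RTP1, SCYGR3, SCYGR4 and TMSB10).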
